A study of Mus musculus with 18 samples.

Results

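Cytochrome P450 genes were examined in the eyecup of *rd1* mice, taken as the protein coding mouse genes whose symbol is Cyp followed by a family number and a subfamily letter. The rule found 99 genes among the 47729 genes of the count table. Of these, 37 were expressed, meaning 10 or more counts in at least 9 of the 18 libraries, and 36 entered the comparison between treated and control eyes. Each of 9 FVB/N mice, which carry the *rd1* allele of *Pde6b* and lose their rods early, gave both eyes at postnatal day 40. The labels number 9 individuals with an eye in each group, and this count is followed here, although the study's methods name fewer pairs for this strain and age. The treated eye had received AAV8 carrying a human *NFE2L2* (Nrf2) cDNA behind the human Best1 promoter, which is active in the retinal pigment epithelium (RPE), together with an AAV of the 7M8 capsid carrying GFP behind the same promoter. The fellow eye, called control here, had received only the GFP virus, so that GFP expression was shared by both groups, and the higher viral load of the treated eye cannot be told apart from Nrf2 itself. All injections were subretinal. The RNA that was amplified and sequenced came from the supernatant of RNA Protect holding the eyecup, freed of retina and connective tissue. The study treats it as RPE RNA. The libraries are bulk samples, in which fewer cells of a type and less RNA per cell cannot be told apart.

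P450 enzymes are haem proteins that insert an oxygen atom into fatty acids, sterols, retinoids, vitamin D and foreign compounds. Most members of the microsomal type receive electrons from the reductase encoded by *Por*, with cytochrome b5 as a helper, and the mitochondrial type uses ferredoxin. In the eye, the family is known for *CYP1B1* in congenital glaucoma, *CYP4V2* in Bietti crystalline dystrophy of the RPE and retina, and *CYP27A1* and *CYP46A1* in the removal of cholesterol from retina and RPE.

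Library totals ran from 18956748 to 49598700 counts. The targeted gene followed the labels: *Nfe2l2* stood at 89.7 ± 17.8 CPM (counts scaled to library size; SD, n = 9) in control eyes against 454 ± 147 CPM after treatment, higher in 9 of 9 mice (edgeR adjusted p = 6.21e-05), although reads of a human cDNA are counted here only as far as they align to the mouse gene. Its known target *Nqo1* rose from 133 ± 25.8 to 552 ± 164 CPM (edgeR adjusted p = 9.58e-05). The 12 RPE markers summed to 12480 to 66560 CPM in control eyes and 14240 to 76790 in Best1-Nrf2 eyes. Their means in control eyes ran from 1.46 CPM for *Best1* to 12870 CPM for *Ttr*. After treatment 5 of the 12 were lower, such as *Rpe65* at 2021 against 297 CPM, and the other 7 did not pass. Cone markers were lower for 8 of 8 genes, with a summed level of 250 to 2014 CPM in control eyes and 26.9 to 282 in Best1-Nrf2 eyes. Macrophage and microglia markers were higher for 7 of 10 genes, at 89.8 to 460 against 146 to 535 CPM, and the most abundant of the 10 in control eyes, *Csf1r*, had 136 ± 122 against 59.6 ± 33.9 CPM (edgeR adjusted p = 0.113).

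The 37 expressed P450 genes spanned 27 of the 39 subfamilies, and genes for fatty acids and eicosanoids were the most numerous among them. Of 29 members that act on fatty acids and eicosanoids, 17 were expressed. Of 51 members of families 1 to 3 that act on foreign compounds, 10 were expressed, and these were mostly 1 gene for each subfamily: 1 of 15 Cyp2c genes (*Cyp2c23*), 1 of 9 Cyp3a genes (*Cyp3a13*), 1 of 8 Cyp2d genes (*Cyp2d22*), 1 of 4 Cyp2a genes (*Cyp2a5*) and 1 of 5 Cyp2b genes (*Cyp2b19*). Among genes for sterols and bile acids, 4 of 6 were expressed, and the ones below the limit were *Cyp7a1* and *Cyp8b1*, which encode the hepatic enzymes that start bile acid synthesis and set its composition. Of the 6 genes for steroid hormones only *Cyp17a1* was expressed, and its mean was 0.277 CPM in control eyes, while *Cyp11a1*, the side chain cleavage enzyme, reached 10 counts in 7 libraries and aromatase (*Cyp19a1*) fell short too. Retinoic acid breakdown was represented by *Cyp26a1* and *Cyp26b1* without *Cyp26c1*, and vitamin D handling by *Cyp2r1* and *Cyp24a1* without *Cyp27b1*.

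The 62 members that were not expressed held 1719 counts together over all 18 libraries, against 528946 counts for the expressed members. No count at all was recorded for 22 of them, and 43 never reached 10 counts in any library. The others reached 10 counts in 1 to 7 libraries, such as *Cyp4f14* with at most 72 counts and *Cyp2a4*, which shares sequence with *Cyp2a5*, with at most 131 in a library. A gene below the limit is therefore not shown to be absent. The expressed members together took 0.0796% of all counts.

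Per kilobase of exon, the P450 profile of the control eyecup was led by 3 genes. *Cyp4a12b*, a fatty acid ω-hydroxylase, stood at 99.1 ± 55.5 CPM per kb (SD, n = 9). *Cyp2f2*, best known from the airway epithelium where it activates naphthalene, stood at 91.7 ± 94.8 CPM per kb. *Cyp2a5*, the mouse coumarin hydroxylase, stood at 26.8 ± 18.95 CPM per kb. These 3 held 65.4% ± 21 (SD, n = 9) of the summed CPM per kb of all expressed members, with a range of 26.5 to 86.1% between eyes.

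Next in the order came *Cyp27a1*, the mitochondrial sterol 27-hydroxylase, at 7.88 ± 2.35 CPM per kb, and *Cyp4f16*, of the leukotriene and fatty acid hydroxylase subfamily, at 7.68 ± 2.65. The order of close neighbours was not fixed from eye to eye: *Cyp4a12b* exceeded *Cyp2f2* in 6 of 9 control eyes, *Cyp2f2* exceeded *Cyp2a5* in 6, *Cyp2a5* exceeded *Cyp27a1* in 7 and *Cyp27a1* exceeded *Cyp4f16* in 5. Below them, *Cyp39a1*, *Cyp4f13*, *Cyp4f17*, *Cyp2j6*, *Cyp20a1*, *Cyp4v3*, *Cyp2d22* and *Cyp2u1* followed between 6.88 and 3.24 CPM per kb, and *Cyp1a1* was last at 0.0240 CPM per kb. Some of these levels rest on shared sequence. Of the 31-base words of *Cyp4a12b*, 62.9% also occur in *Cyp4a12a*, and 44.9% of those of *Cyp2a5* occur in *Cyp2a4*, so the split of reads between such copies is uncertain, whereas *Cyp2f2* shares no such word with another gene but overlaps *Gm15883*, on the other strand, by 274 bases of exon.

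**Figure D1:**
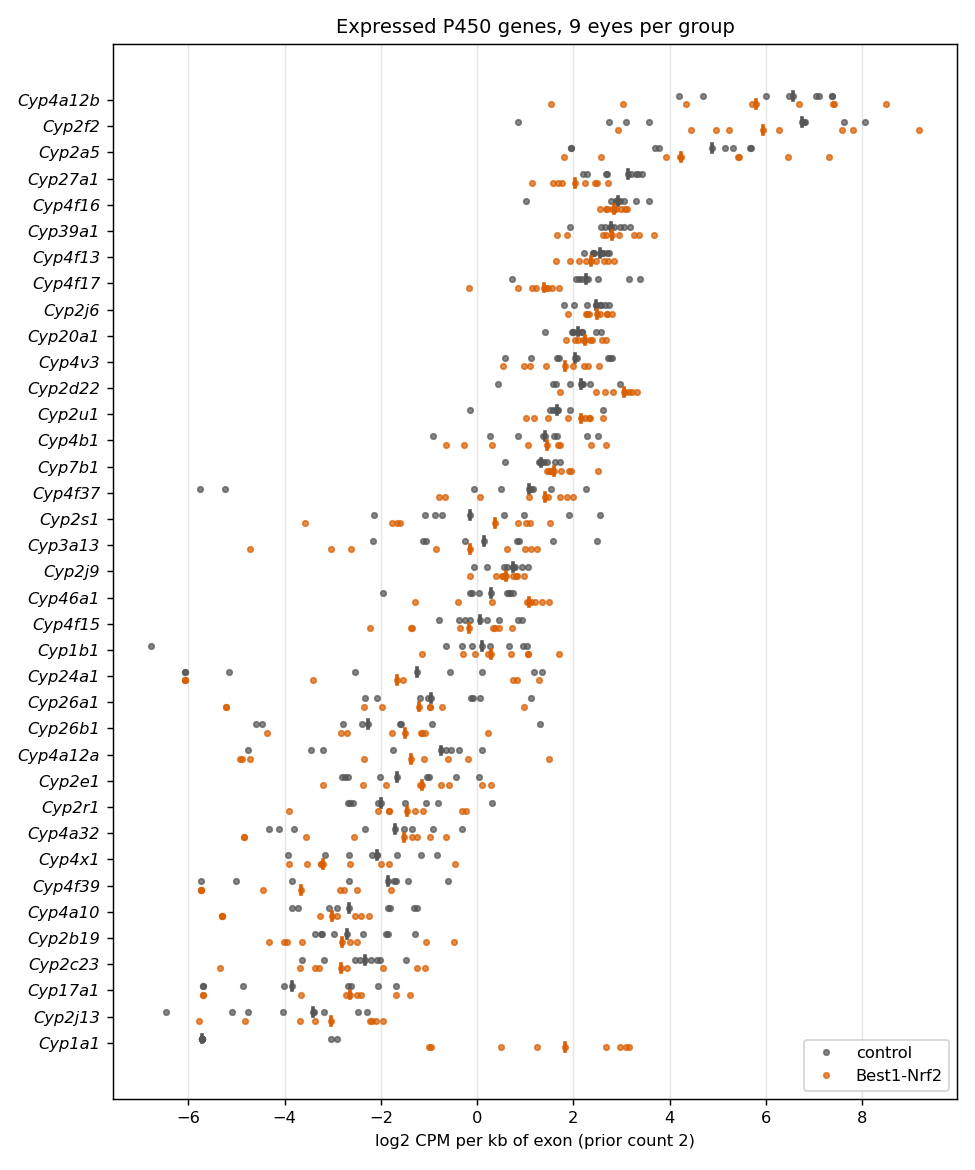
Level of each of the 37 expressed P450 genes in every library, on the horizontal axis as log2 CPM per kb of exon, with grey points for the 9 control eyes, orange points for the 9 Best1-Nrf2 eyes and vertical ticks at the group medians. Genes are ordered by their control mean, and *Cyp1a1*, at the bottom, is the member whose groups do not overlap.

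The leading genes varied widely between eyes of the same group. In control eyes *Cyp2f2* ranged from 3.57 to 543 CPM with a median of 219, *Cyp4a12b* from 43.8 to 397 with a median of 227, and *Cyp2a5* from 7.90 to 108 with a median of 61.1. The highest control eye exceeded the lowest by 152-fold for *Cyp2f2*, 9.07-fold for *Cyp4a12b* and 13.6-fold for *Cyp2a5*, compared with 2.37-fold for *Cyp27a1*. In Best1-Nrf2 eyes *Cyp4a12b* ranged even further, from 6.93 to 868 CPM. The control eyes of *Cyp2f2* split by mouse number, with 3.57 to 24.1 CPM in mice 1 to 4 and 219 to 543 in mice 5 to 9. Those of *Cyp2a5* did likewise, at 7.90 to 28.6 and 61.1 to 108 CPM. Control eyes showed no such split for *Cyp4a12b*, nor did treated eyes for any of these genes. The split was seen after the fact, and its cause was not tested.

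Markers of ocular surface epithelium varied between eyes as well. A list of 10 corneal and conjunctival epithelial genes, among them *Krt5*, *Krt12* and *Aldh3a1*, was drawn up after the P450 values had been seen. Its summed level ran from 3690 to 76790 CPM (median 23020) in control eyes and from 464 to 62170 CPM (median 11180) in Best1-Nrf2 eyes. None of the 10 genes differed between the groups past the threshold, with adjusted p from 0.695 to 0.887 in the edgeR fit. All 10 log2 fold changes were negative, from -2.37 (*Krt12*, SE 2.2) to -0.51 (*Krt15*, SE 0.64), so equal levels in the groups are not shown.

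Across the 9 eyes of a group, the log2 CPM of 5 of the 37 members had a Pearson r above 0.8 with the mean log2 level of these markers in both groups, namely *Cyp4a12b*, *Cyp2s1*, *Cyp3a13*, *Cyp24a1* and *Cyp2r1*. For *Cyp3a13* r was 0.989 and Spearman's rho 0.983 in control eyes, and r was 0.980 and rho 0.983 in Best1-Nrf2 eyes. For *Cyp4a12b* r was 0.850 and rho 0.867 in control eyes, and r was 0.987 and rho 0.983 in Best1-Nrf2 eyes. Over all 37 members the median r was 0.354 in control and 0.533 in Best1-Nrf2 eyes, and no member had r below -0.8 in both groups. These are descriptions without a test, since the marker list was chosen late and the 2 quantities come from the same libraries. Of the other leading genes, *Cyp2f2* had r of 0.436 in control and 0.787 in Best1-Nrf2 eyes (rho 0.417 and 0.850) and *Cyp2a5* had 0.347 and 0.649 (rho 0.300 and 0.667). With the 2 eyes farthest from the median marker level left out, r of *Cyp4a12b* was 0.705 in control eyes and 0.967 in Best1-Nrf2 eyes, that of *Cyp2f2* 0.225 and 0.660, and that of *Cyp2a5* 0.260 and 0.147.

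**Figure D2:**
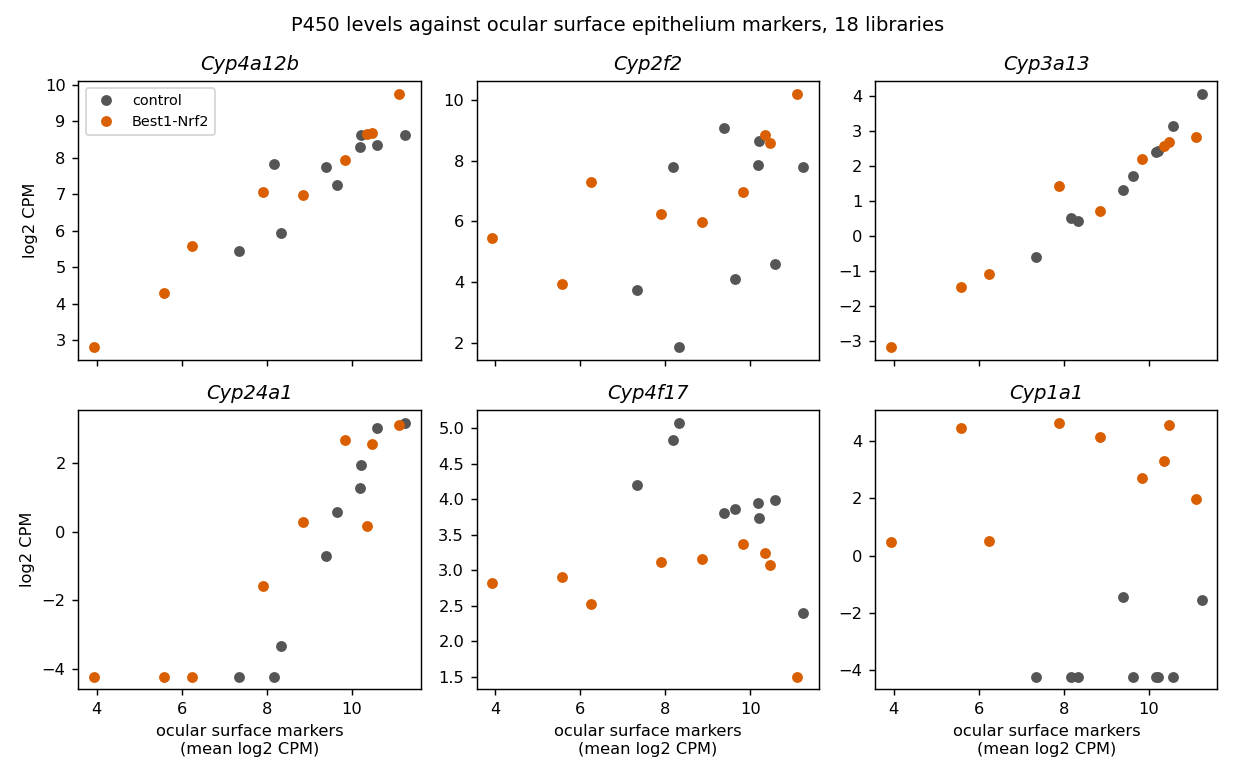
Log2 CPM of 6 P450 genes (vertical axes) against the mean log2 CPM of 10 ocular surface epithelium markers (horizontal axes), with 1 point per library, grey for control and orange for Best1-Nrf2 eyes. *Cyp3a13* (r = 0.989 in control and 0.980 in Best1-Nrf2 eyes) and *Cyp4a12b* follow the markers, while *Cyp1a1* separates the groups at any marker level.

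The comparison of Best1-Nrf2 with control eyes asked how P450 genes changed when Nrf2 was expressed from an RPE promoter. Of the 36 members tested, 2 were higher (*Cyp1a1* and *Cyp2d22*), 2 were lower (*Cyp27a1* and *Cyp4f17*) and 32 did not pass an adjusted p of 0.05 in edgeR's quasi-likelihood test with the mouse as a block. Over all 18958 genes tested, 4.25% passed, 3.12% higher and 1.13% lower, and no test was made of the members' share of 11.1% against that figure. The median log2 fold change of the tested members was -0.01, and that of all genes -0.03. At an unadjusted p under 0.05, 5 members passed, where 12.8% of all genes did. *Cyp1a1* entered the test, and the expressed set, only through the treated eyes: 9 of 9 Best1-Nrf2 libraries and 0 of 9 control libraries held 10 or more counts of it.

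*Cyp1a1* encodes the classical aryl hydrocarbon hydroxylase, whose best known inducer is the aryl hydrocarbon receptor, and the gene lies at chr9:57687928-57703824 on the plus strand (GRCm38). In control eyes it was at 0 counts in 7 of 9 libraries, and the others, of mice 5 and 8, held 8 and 5 counts. In Best1-Nrf2 eyes it ran from 36 to 914 counts, that is 1.33 CPM at the lowest, 9.89 at the median and 24.8 at the highest, and no treated eye fell within the control range. Such separation toward higher levels was found for 1.05% of all genes tested.

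The mean of *Cyp1a1* was 0.0670 ± 0.133 CPM (SD, n = 9) in control eyes, and treatment brought it to 12.3 ± 9.71 CPM, a ratio of 184 that rests on 13 control counts against 4406. The fitted log2 fold change was 8.38 (SE 0.95, edgeR adjusted p = 2.74e-04), with the treated eye higher in 9 of 9 mice. Within a mouse, taking a floor of 3 counts where the control library had none, the treated eye was at least 13-fold (mouse 3) to at least 332-fold (mouse 4) higher, and the ratio was 74.5 in mouse 5 and 13.6 in mouse 8. Per kilobase of exon, its mean level after treatment was 4.43 CPM per kb. In the same eyes *Cyp27a1*, which was lower after treatment, had 4.22 CPM per kb, against 7.88 in control eyes.

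Among the 9 treated eyes, the log2 levels of *Cyp1a1* and *Nfe2l2* had a Pearson r of 0.763 (exact permutation p = 0.0205, two-sided) and a Spearman rho of 0.900 (exact permutation p = 0.00203). It was 1 of 37 such relations computed, and none passed after Benjamini-Hochberg adjustment over the 37 (0.281 for r and 0.0750 for rho of *Cyp1a1* by the exact permutation test). Without the 2 eyes farthest from the median *Nfe2l2* level, r was 0.605. Relations of like size were found for *Cyp26b1*, in the opposite direction (r = -0.761, exact permutation p = 0.0145), and for *Cyp4f16* (r = 0.748, exact permutation p = 0.0228).

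The promoter of *Cyp1a1* is shown because this gene had the largest fold change among the members, beside that of *Cyp1b1*, the other expressed member of its family, which carries the same motif and did not pass the test. Each line gives the 250 bases before the RefSeq start site on GRCm38.p6, 5′ to 3′ on the gene's strand, with the dioxin response element core GCGTG in capitals, which reads CACGC where it lies on the opposite strand. The windows are chr9:57697363-57697612, plus strand, which lies inside the longer gene span given above, and chr17:79715062-79715311, minus strand.
Cyp1a1: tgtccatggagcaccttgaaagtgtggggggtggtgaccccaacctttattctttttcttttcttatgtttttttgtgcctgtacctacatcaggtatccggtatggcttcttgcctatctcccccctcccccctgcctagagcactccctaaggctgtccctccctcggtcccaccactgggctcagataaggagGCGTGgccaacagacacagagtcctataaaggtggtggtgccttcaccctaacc
Cyp1b1: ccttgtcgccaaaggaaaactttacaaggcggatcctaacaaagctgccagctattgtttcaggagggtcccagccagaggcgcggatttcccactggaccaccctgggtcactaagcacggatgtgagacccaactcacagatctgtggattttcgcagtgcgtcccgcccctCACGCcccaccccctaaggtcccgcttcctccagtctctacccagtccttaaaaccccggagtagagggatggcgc

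Each window held 1 match, with its first base 54 bases before the start of *Cyp1a1* on the gene's strand and 76 bases before the start of *Cyp1b1* on the opposite strand. A match of GCGTG on either strand was present in 32.4% of 32851 RefSeq promoter windows (250 bases before to 50 after the start) and in 11 of the 26 windows of expressed members. The core of the antioxidant response element, TGACNNNGC, was present in 12.4% of all windows and in 2 of the 26 windows, those of *Cyp2j6* and *Cyp4f39*, neither of which passed the test. Windows were given for 25 of the 37 expressed members. The *Cyp27a1* window held neither motif, and none was given for *Cyp2d22* or *Cyp4f17*. These matches are letters in a short window and say nothing of binding.

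*Cyp1b1*, which metabolises oestradiol, retinoids and polycyclic hydrocarbons, had 6.57 ± 3.79 CPM in control eyes against 8.82 ± 4.97 CPM after treatment (SD, n = 9). Its control eyes ran from 0 to 11.9 CPM (median 6.17) and its treated eyes from 2.59 to 19 (median 7.08), so the groups overlapped. The log2 fold change was 0.67 (SE 0.53, edgeR adjusted p = 0.709). Genes of the pathway that controls the family 1 enzymes did not pass the test either: *Ahr*, the receptor, had a log2 fold change of -0.07 (edgeR adjusted p = 0.960), and its partner *Arnt*, its repressor *Ahrr* and its target *Tiparp* lay between -0.12 and 0.21.

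*Cyp2d22*, the mouse Cyp2d gene most often set beside human CYP2D6, lies at chr15:82370527-82380260 on the minus strand and was the other member that rose. It ran from 5.19 to 30.7 CPM (median 17.3) in control eyes and from 12.8 to 39.3 CPM (median 32.2) in Best1-Nrf2 eyes. The groups overlapped, with 5 of 9 treated eyes above the highest control eye. The mean went from 16.3 ± 6.97 to 29.0 ± 8.28 CPM (SD, n = 9), a log2 fold change of 0.90 (SE 0.17, edgeR adjusted p = 0.00833), higher in 8 of 9 mice. Without the mouse as a block the log2 fold change was 0.83 and the edgeR adjusted p 0.106, so this call depends on the pairing of the eyes. The eyes of a mouse deviated from their group means with a median correlation of -0.00095 over the 9 mice.

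The other 8 expressed genes for foreign compounds did not pass the test. *Cyp2f2* had 186 ± 192 CPM in control eyes against 277 ± 370 CPM after treatment (log2 fold change 0.85, SE 0.84, edgeR adjusted p = 0.791), and *Cyp2a5* had 55.6 ± 39.3 and 90.98 ± 105 CPM (log2 fold change 0.43, SE 0.63, adjusted p = 0.885). The standard error of *Cyp2f2* was thus close to the whole change of *Cyp2d22*. *Cyp2b19*, an epidermal arachidonic acid epoxygenase, *Cyp2c23*, *Cyp2e1*, the ethanol-oxidising enzyme, *Cyp2s1* and *Cyp3a13* had log2 fold changes from -0.75 to 0.42.

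**Figure D3:**
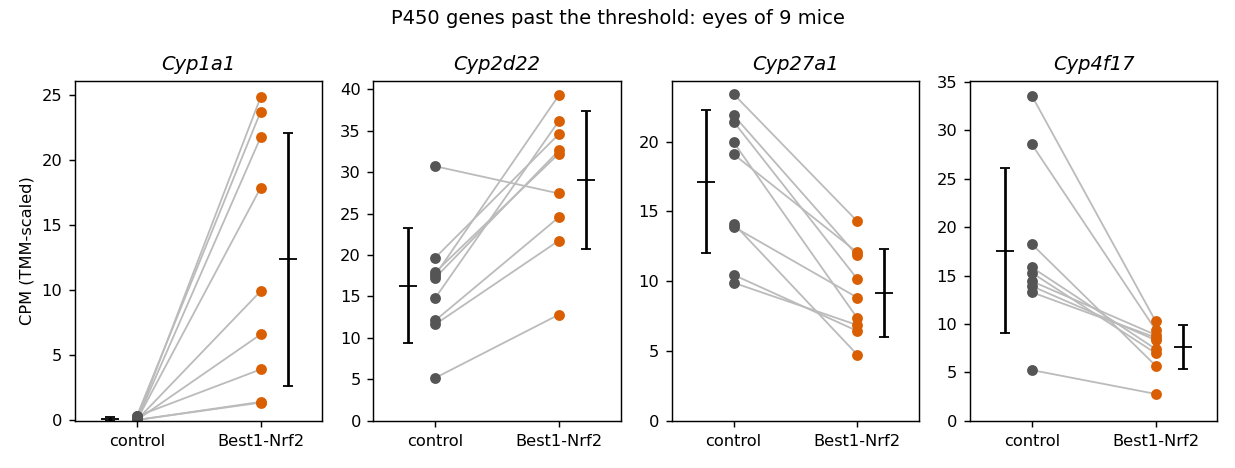
CPM of the 4 P450 genes past the threshold in the eyes of 9 mice, with a grey line joining the control and Best1-Nrf2 eye of each mouse and bars at the mean ± SD beside the points. *Cyp1a1* and *Cyp2d22* are higher in 9 and 8 of 9 treated eyes, and *Cyp27a1* and *Cyp4f17* are lower in 9 of 9.

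*Cyp27a1*, at chr1:74713574-74737892 on the plus strand, encodes the mitochondrial enzyme that oxidises the cholesterol side chain to 27-hydroxycholesterol and cholestenoic acid, and it fell in Best1-Nrf2 eyes. Control eyes ran from 9.90 to 23.4 CPM (median 19.1) and treated eyes from 4.74 to 14.3 CPM (median 8.83). The groups overlapped, with 5 of 9 treated eyes below the lowest control eye. Control eyes of mice 1 to 4 (9.90 to 14.1 CPM) also lay below those of mice 5 to 9 (19.1 to 23.4). Treated eyes held 4.74 to 8.83 and 7.37 to 14.3 CPM in these sets, which were formed after the values were seen. The mean went from 17.1 ± 5.11 to 9.18 ± 3.14 CPM (SD, n = 9), a log2 fold change of -0.91 (SE 0.17, edgeR adjusted p = 0.00726), and the treated eye was the lower in 9 of 9 mice, as it was for 1.22% of all genes. *Cyp27a1* shares no 31-base word with another gene.

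The other genes for cholesterol and oxysterols did not pass the test in edgeR. *Cyp46a1*, the neuronal cholesterol 24-hydroxylase, had 3.86 ± 1.52 CPM in control eyes against 5.93 ± 2.71 CPM after treatment, with ranges of 0.798 to 5.43 (median 3.95) and 1.29 to 9.19 (median 6.85), and was higher in 8 of 9 mice. Its log2 fold change of 0.58 (SE 0.21) did not pass in edgeR (adjusted p = 0.221) but did with DESeq2 (adjusted p = 0.0365). *Cyp7b1*, the oxysterol 7α-hydroxylase, had a log2 fold change of 0.41 (edgeR adjusted p = 0.486) with 8 of 9 mice higher, and *Cyp39a1*, which 7α-hydroxylates 24-hydroxycholesterol, had 0.02 (adjusted p = 0.987). The difference between the fold changes of *Cyp27a1* and *Cyp46a1* was not tested.

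*Cyp4f17*, at chr17:32506050-32530143 on the plus strand, belongs to the subfamily that ω-hydroxylates leukotrienes and long fatty acids and was the other member that fell. Control eyes ran from 5.24 to 33.5 CPM (median 15.3) and treated eyes from 2.78 to 10.3 CPM (median 8.34). The ranges overlapped because the control eye of mouse 8, at 5.24 CPM, was far below the other control eyes, and only 1 treated eye lay below it. The mean went from 17.6 ± 8.49 to 7.60 ± 2.26 CPM (SD, n = 9), a log2 fold change of -1.13 (SE 0.18, edgeR adjusted p = 0.00287), lower in 9 of 9 mice. Of its 31-base words 11.7% also occur in other genes, 5.48% in *Cyp4f16*.

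Its neighbours in the Cyp4f cluster of chromosome 17 did not pass the test. *Cyp4f16* had 23.6 ± 8.13 CPM in control eyes against 22.2 ± 2.89 CPM after treatment (log2 fold change 0.01, SE 0.22, edgeR adjusted p = 0.996), *Cyp4f13* had a log2 fold change of -0.19 (SE 0.18) and *Cyp4f15* one of -0.50 (SE 0.41). *Cyp4f37* (0.84, SE 0.79), which shares 25.9% of its words with *Cyp4f16*, and *Cyp4f39* (-1.32, SE 1.07), an acylceramide enzyme of the skin barrier, had the least precise estimates of the cluster.

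Among the remaining fatty acid genes, *Cyp4a12b* had 237 ± 133 CPM in control eyes against 251 ± 277 CPM after treatment (log2 fold change -0.38, SE 0.76, edgeR adjusted p = 0.924). Its near copy *Cyp4a12a* had -0.19 (SE 0.97), and *Cyp4a32*, closest in words to *Cyp4a10*, had -0.17 (SE 0.89). *Cyp4a10* was expressed by the count rule but too low for the fit. *Cyp4v3*, the mouse counterpart of human *CYP4V2*, ran from 5.66 to 26.7 CPM (median 15.5) in control and from 5.51 to 21.8 CPM (median 13.4) in Best1-Nrf2 eyes. Its mean was 16.4 ± 7.82 and 13.1 ± 5.65 CPM (log2 fold change -0.28, SE 0.34, adjusted p = 0.846). Of the Cyp2j subfamily of arachidonic acid epoxygenases, *Cyp2j6*, *Cyp2j9* and *Cyp2j13* had log2 fold changes of 0.05, -0.03 and 0.86, and *Cyp2u1*, *Cyp4b1* and *Cyp4x1* had 0.34, -0.07 and -0.58, none past the threshold.

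The genes for retinoic acid, vitamin D and steroids were low and did not pass. *Cyp26a1*, which clears retinoic acid, ran from 0.342 to 4.28 CPM (median 0.961) in control eyes and from 0 to 3.85 (median 0.803) in Best1-Nrf2 eyes, with a log2 fold change of -1.44 (SE 0.82, edgeR adjusted p = 0.537). *Cyp26b1*, with the same task, ran from 0.167 to 13.2 CPM (median 1.06) and from 0.206 to 6.18 (median 1.84), with 0.39 (SE 0.57, adjusted p = 0.881). *Cyp2r1*, the vitamin D 25-hydroxylase, had 0.17, *Cyp24a1*, which degrades vitamin D, -0.19 with an SE of 2.04, and *Cyp17a1* 0.86 with an SE of 0.98. *Cyp20a1*, a member with no settled substrate, was among the steadiest, with 9.96 ± 2.23 and 11.1 ± 2.06 CPM (log2 fold change 0.17, SE 0.15, adjusted p = 0.758).

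**Figure D4:**
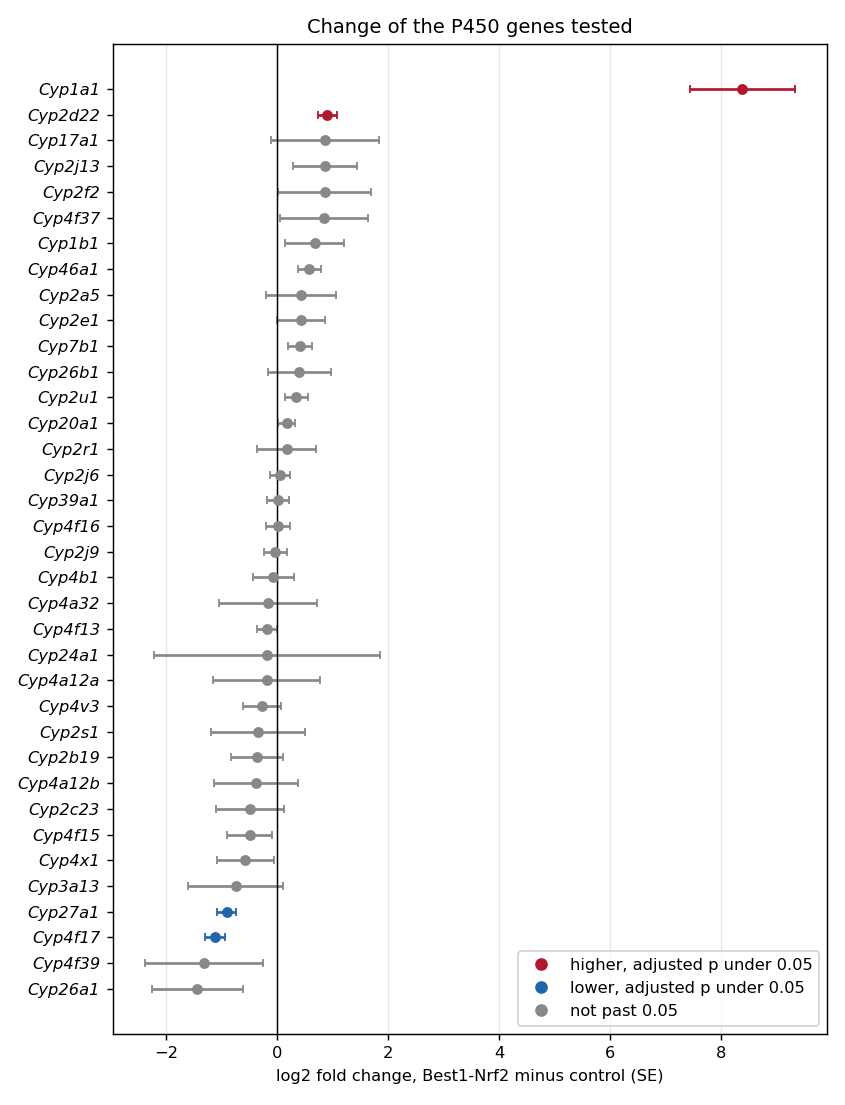
Log2 fold change (Best1-Nrf2 minus control) of the 36 P450 genes tested, with bars of 1 SE from the edgeR fit, red for the 2 members higher, blue for the 2 members lower and grey for the 32 not past an adjusted p of 0.05. *Cyp1a1* lies far to the right at 8.38, and the wide bars belong to genes with low or very uneven levels.

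Partner genes, which serve P450 enzymes or handle their substrates and products, were taken from a list of 47 that also holds 3 P450 genes with another symbol pattern, and 44 were tested. Among these 44, 5 were higher and 2 lower, a share of 15.9% against 4.25% of all genes. No test was made of this share, and the list was chosen with earlier results of these data known. The genes listed under electron transfer gave 3 of the 5. *Pgrmc1*, a haem-binding protein that associates with P450 enzymes, ran from 207 to 437 CPM (median 339) in control eyes and from 572 to 2312 (median 1263) in Best1-Nrf2 eyes without overlap, with a log2 fold change of 1.94 (SE 0.22, edgeR adjusted p = 2.77e-04). *Cyb5a*, cytochrome b5 itself, ran from 133 to 554 CPM (median 233) and from 396 to 1622 (median 994), with 2.02 (SE 0.27, adjusted p = 9.37e-04) and 9 of 9 mice higher.

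*Cyb5r3*, the reductase of cytochrome b5, went from 135 ± 32.1 to 293 ± 128 CPM (log2 fold change 1.02, SE 0.22, edgeR adjusted p = 0.0189), but the call was lost without mouse 4 (adjusted p = 0.0565) and without mouse 7 (0.0643). *Por*, the principal reductase, had 203 ± 56.4 and 182 ± 68.9 CPM (log2 fold change -0.20, SE 0.27, adjusted p = 0.864). None of the 8 genes of haem synthesis passed in edgeR at an adjusted p of 0.05, nor did any at an unadjusted p under 0.05 (median log2 fold change 0.12). None of the 14 receptors and transcription factors tested passed in edgeR either, with 2 at an unadjusted p under 0.05 (median 0.04).

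Both epoxide hydrolases on the list, which open the epoxides that P450 enzymes make, were higher. *Ephx1* went from 200 ± 32.8 to 561 ± 177 CPM without overlap between the groups (log2 fold change 1.44, SE 0.18, edgeR adjusted p = 4.58e-04). *Ephx2* went from 55.3 ± 9.33 to 102 ± 37.8 CPM (0.82, SE 0.20, adjusted p = 0.0421), a call that held in 6 of the 17 other settings tried and was lost when any mouse but mouse 6 was left out (adjusted p from 0.0526 to 0.128).

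Among the 8 retinoid genes tested, *Rdh10*, which makes retinal from retinol, was lower at 1344 ± 758 against 740 ± 262 CPM (log2 fold change -0.73, SE 0.18, edgeR adjusted p = 0.0429), and this held in 5 of the 17 other settings and was lost when any mouse but mouse 8 was left out (adjusted p from 0.0563 to 0.146). *Ptgis*, prostacyclin synthase, is a P450 enzyme whose symbol lies outside the rule and was the partner gene that fell the furthest. It ran from 23.9 to 85.7 CPM (median 54.4) in control eyes and from 3.45 to 23.9 (median 11.04) in Best1-Nrf2 eyes, lower in 9 of 9 mice (log2 fold change -2.29, SE 0.31, adjusted p = 9.82e-04). Of the other P450 genes with another symbol pattern, *Cyp51*, the lanosterol demethylase, had -0.06 and *Tbxas1*, thromboxane synthase, 0.35, neither past the threshold.

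**Figure D5:**
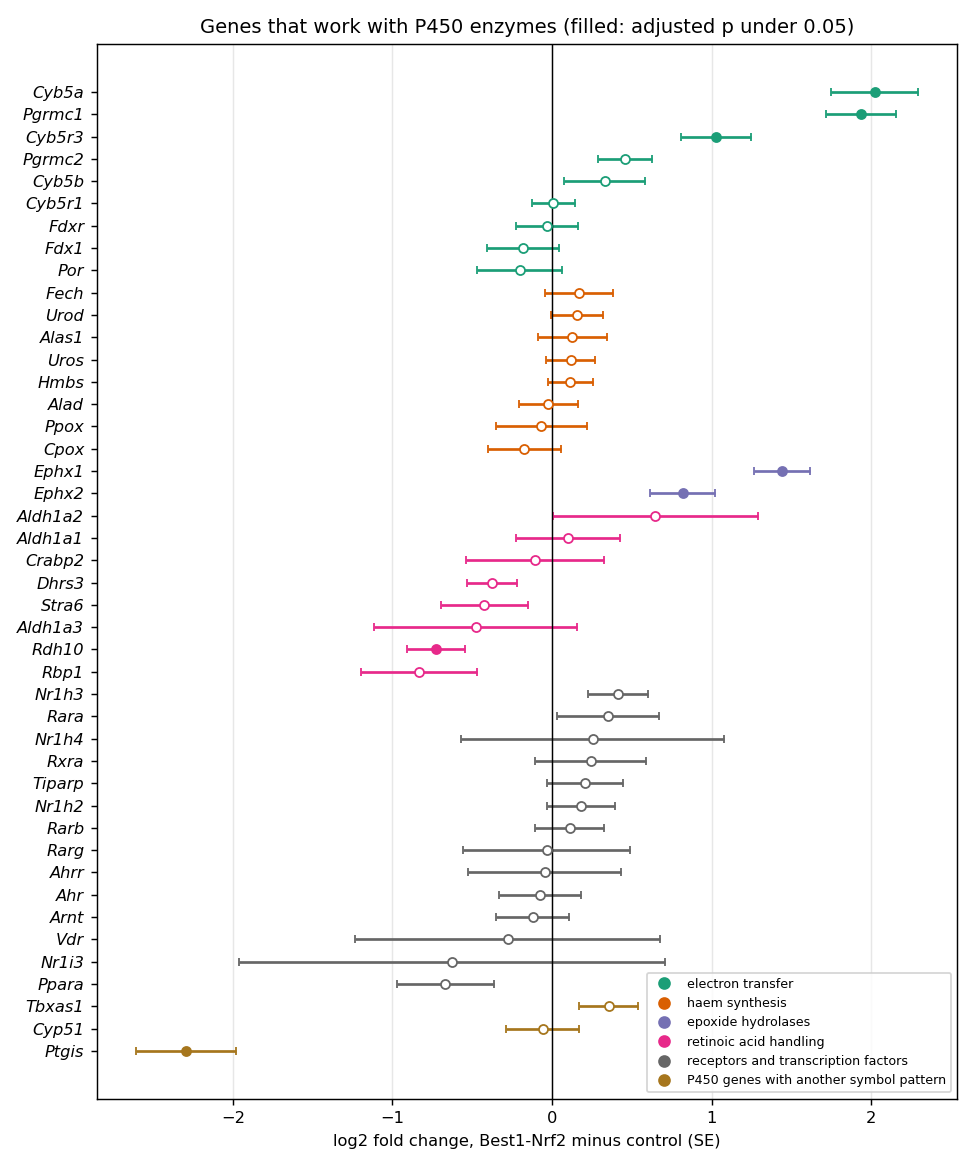
Log2 fold change (Best1-Nrf2 minus control, bars of 1 SE) of the 44 partner genes tested, coloured by their role and filled where the adjusted p was under 0.05. *Cyb5a*, *Pgrmc1* and *Ephx1* lie furthest to the right among the filled points and *Ptgis* furthest to the left.

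Cone, macrophage and RPE markers moved with treatment in the same libraries, as given above. When the mean log2 level of photoreceptor markers was added to the fit as a covariate, none of the 36 members passed in edgeR (11 genes did over the whole table), and with macrophage markers none did (12 genes over the whole table). In these fits *Nfe2l2* itself was not past the threshold either, with adjusted p of 0.111 and 0.0957, so the marker level and the treatment cannot be told apart there. *Cyp1a1* had a log2 fold change of 5.10 (edgeR adjusted p = 0.243) with the photoreceptor markers and 10.3 (0.267) with the macrophage markers. The others had 1.03 and 0.71 (*Cyp2d22*), -1.45 and -1.02 (*Cyp27a1*) and -0.97 and -1.45 (*Cyp4f17*), in the same order of covariates. Among the partner genes, *Ptgis* had -0.96 and -2.52 in these fits, *Pgrmc1* 1.76 and 1.97, *Cyb5a* 2.97 and 1.80, and *Ephx1* 1.20 and 1.54, none past the threshold. *Cyb5r3*, *Ephx2* and *Rdh10* did not pass in these fits either. Over the main fit and all other settings tried, their log2 fold changes ran from 0.34 to 1.18, 0.15 to 0.97 and -1.07 to -0.51. With the ocular surface markers as covariate, an alternative chosen after seeing the data, all 4 calls among the members remained, with log2 fold changes of 8.06 for *Cyp1a1*, 0.83 for *Cyp2d22*, -0.78 for *Cyp27a1* and -1.18 for *Cyp4f17*. Per the protocol in the labels the libraries were sequenced in separate runs, with no run given for a library, and the part of the run was not tested.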

How the data were processed

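RNA of 18 eyecups (9 *rd1* mice, both eyes) was sequenced after amplification without molecular identifiers, by a protocol that does not mark strand. The authors deposited a table of estimated counts per Ensembl gene, as whole numbers that are not scaled between libraries. Per the study's methods, reads were aligned with STAR to mm10 with Ensembl transcripts and counted with featureCounts, and in parallel estimated with Salmon (0.8.1 in the submitters' processing notes) and brought to genes with tximport for DESeq2. Which route made the table is not given in the sources used here. Reads of close paralogs, or of genes that overlap on the other strand (*Cyp2u1*, *Cyp4x1*, *Cyp2f2*, *Cyp2s1* and *Cyp24a1*), can therefore be split differently by either route.

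Symbols, coordinates and exon lengths came from GENCODE for GRCm38, another annotation release than the authors', and matched 47310 of 47729 identifiers; promoter sequences came from RefSeq (GRCm38.p6). Counts were fitted in edgeR 4.0.16 (R 4.3.3) with filterByExpr, TMM scaling, group and mouse as a block, using the quasi-likelihood F test and Benjamini-Hochberg adjustment over all 18958 genes. Groups and the pairing of eyes came from the labels, which number the individual of each library and say that each mouse gave both eyes. Deviations of the 2 eyes of a mouse from their group means had correlations from -0.37 to 0.64, with a median of -0.00095. No libraries of a group agreed within sampling noise. The SE was derived from the F statistic, and CPM are scaled by TMM. The fits were tested on simulated data. The members and lists were chosen with earlier results of these data known. Every expressed member is named, with full values for members past the threshold, the 5 highest per kb and a few with known eye roles; partner genes are named when past it, with *Por* and *Ahr*, and others named were chosen after their values were seen. Alternatives were no block, RLE scaling, DESeq2 1.42.0, no filter, the expression rule as filter, marker covariates and each mouse left out. The floor of 3 counts used for *Cyp1a1* covers counting error only.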

Additional observations from a re-analysis of the deposited data

Results flagged for a closer look

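In 74 groups of 9 libraries (37 expressed members in control and in Best1-Nrf2 eyes), the lowest or highest eye stood apart by Dixon's criterion in 10, where chance gives about 3.7. The control eye of mouse 8, the smallest library at 18956748 counts and the one with the highest level of ocular surface markers, accounted for 6 of the 10, always as the lowest. Its log2 CPM was 2.63 for *Cyp4f16* (next lowest 4.40), 2.40 for *Cyp4f17* (3.74), 2.24 for *Cyp2u1* (3.89), 1.70 for *Cyp7b1* (2.40), -0.23 for *Cyp46a1* (1.56) and -4.23 for *Cyp1b1*, at 0 counts (1.90). The Best1-Nrf2 eye of the same mouse was the lowest for *Cyp4f17*, at 1.505 against 2.53. Without mouse 8, *Cyp4f17* had a log2 fold change of -1.15 (edgeR adjusted p = 0.00569), and the same 4 members passed. The part of depth and of surface tissue in these low values was not tested.

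Other eyes stood apart in 3 cases. *Cyp39a1* was lowest in the control eye of mouse 3 at 3.53 (next 4.19), *Cyp7b1* was highest in the Best1-Nrf2 eye of mouse 3 at 3.62 (next 3.06), and *Cyp2r1* was lowest in the Best1-Nrf2 eye of mouse 6 at -2.83, on 3 counts (next -0.98).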

How the results depend on the processing

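The count of P450 genes past the threshold was 2 higher and 2 lower under RLE scaling, without a filter, with the expression rule as filter, with the surface marker covariate and with each mouse left out, and *Cyp1a1*, *Cyp2d22*, *Cyp27a1* and *Cyp4f17* were those genes each time. Without the replicate block, 1 member was higher (*Cyp2d22* was lost, log2 fold change 0.83, edgeR adjusted p = 0.106) and 1 partner gene lower, and no other call among the members changed. DESeq2 gave 3 higher and 2 lower members, and it called 1478 genes over the whole table where edgeR called 806. With photoreceptor or macrophage markers as covariate, 0 members and 0 partner genes passed in either direction. The partner genes lower were 1 without a filter, and with a mouse left out they numbered 1 to 2, with 3 to 5 higher. None of the 4 members past the threshold changed sign in any of the 17 settings, and the log2 fold change ran from 5.10 to 10.3 for *Cyp1a1*, 0.71 to 1.08 for *Cyp2d22*, -1.45 to -0.78 for *Cyp27a1* and -1.45 to -0.97 for *Cyp4f17*. Leaving out a mouse moved the log2 fold change of *Cyp1a1* between 8.00 and 9.45. The cause of these changes was not tested. *Cyp17a1*, *Cyp24a1*, *Cyp4a12a* and *Cyp4f39* had standard errors of 0.97 or above, so only very large changes of these genes could have been resolved. Depth limits what can be said of the 62 members below the expression limit.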
